A study of Mus musculus with 8 samples.

Results

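The B cell and immunoglobulin genes described here were 9 genes chosen by name, namely Ighm, Igkc, Iglc2, Jchain, Cd79a, Cd79b, Ms4a1, Fcrla and Blnk. All 9 were present among the 16119 genes of the count table and all 9 passed the filter on low counts. They were measured by RNA-seq in common dendritic cell progenitors (CDPs), the bone marrow cells that give rise to conventional and plasmacytoid dendritic cells. CDPs were sorted as Lin-, c-kit int, Sca1 lo, CD115+ and Flt3+ cells, about 50000 per sample, from male mice labelled C57BL/6 (C57BL/6J in the study's methods). The high fat diet group (HFD, labelled DIO) received 60 kcal% fat for 16 weeks and the control group (CF, labelled DIO-Control) received matched chow with 10 kcal% fat, with 4 libraries per diet. No allele or agent other than diet was recorded for either group, and the labels do not tie each library to 1 mouse, so p-values measure the spread between these libraries. Summed counts ranged from 28203651 to 38969160 in HFD and from 32575696 to 48409689 in CF.

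A B cell receptor is assembled from a heavy chain and a light chain, each joining a rearranged variable region to a constant region. The first heavy chain made is of the mu class, encoded with the Ighm constant region. Light chains are of the kappa type (Igkc) or the lambda type (the Iglc genes), and in the mouse kappa predominates. The receptor signals through the Cd79a and Cd79b pair, and the adaptor encoded by Blnk links it to downstream enzymes. Jchain encodes the chain that joins IgM or IgA into polymers in antibody secreting cells, Ms4a1 encodes CD20 of mature B cells, and Fcrla encodes an Fc receptor-like protein kept inside B cells. Transcripts of the mu constant region also occur before any heavy chain is assembled, so a count of Ighm does not by itself show a complete heavy chain.

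The genes of the sort gate were detected in every library. Flt3 ranged from 88.8 to 378 CPM (counts per 1000000 counts of a library, scaled by TMM), Csf1r (CD115) from 79.4 to 133, Kit from 34.2 to 53.6 and Ly6a (Sca1) from 1.37 to 3.25. Defining B cell markers beside the 9 genes were also above 0 in every library, with Pax5 at 4.54 to 38.9 CPM, Ebf1 at 16.03 to 34.6, Vpreb3 at 2.26 to 5.80 and Cd22 at 9.34 to 15.9. HFD replicate 1 stood apart from the other libraries. Its summed level of 10 neutrophil markers was 20030 CPM against 931 to 6415 in the other 7 libraries, and its summed level of 10 erythroid markers was 653 CPM against 102 to 164. Its Flt3 level of 88.8 CPM was the lowest (228 to 378 in the others), while its Csf1r, Kit and Ly6a levels lay within the range of the other libraries. The differences between the diets are therefore also given without it for the 9 genes, and the part of other cell types in those results was not tested. In bulk RNA, fewer cells of a type and less RNA per cell cannot be told apart.

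The variable region genes that led the kappa reads differed from library to library, and their coding ends are shown first because they show how alike some of these genes are. Each sequence holds the last 90 germline bases of the gene, up to the point at which it joins a J segment, from the GENCODE vM21 transcripts on GRCm38, written 5′ to 3′ on the coding strand. Capitals in Igkv10-95 and Igkv10-96 mark bases that differ from Igkv10-94, at 1 and 12 positions. Igkv13-85 was compared with Igkv13-84, from which it did not differ here, and the other sequences were not compared.
Igkv10-94: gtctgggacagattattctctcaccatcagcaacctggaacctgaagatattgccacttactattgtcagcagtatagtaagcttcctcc
Igkv10-95: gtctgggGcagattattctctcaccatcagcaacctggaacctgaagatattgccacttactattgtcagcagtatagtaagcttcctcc
Igkv10-96: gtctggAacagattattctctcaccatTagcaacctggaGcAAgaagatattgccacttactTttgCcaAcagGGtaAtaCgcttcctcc
Igkv13-84: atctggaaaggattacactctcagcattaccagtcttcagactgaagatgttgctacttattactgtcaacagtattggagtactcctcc
Igkv13-85: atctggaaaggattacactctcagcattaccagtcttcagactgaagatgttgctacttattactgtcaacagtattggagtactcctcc
Igkv8-27: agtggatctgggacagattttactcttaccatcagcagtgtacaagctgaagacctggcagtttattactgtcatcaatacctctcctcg
Igkv15-103: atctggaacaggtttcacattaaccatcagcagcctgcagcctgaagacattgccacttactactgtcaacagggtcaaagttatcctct
Igkv1-88: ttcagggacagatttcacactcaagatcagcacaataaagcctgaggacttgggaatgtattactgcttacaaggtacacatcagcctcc
Igkv12-46: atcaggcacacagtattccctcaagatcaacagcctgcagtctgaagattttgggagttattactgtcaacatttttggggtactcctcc

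All of these genes lie on chromosome 6 of GRCm38, in the kappa locus that also holds Igkc. Igkv10-94 spans chr6:68704508-68704978 on the minus strand, Igkv13-84 spans chr6:68939602-68940067 on the plus strand and Igkv8-27 spans chr6:70171809-70172270 on the minus strand. Over the last 287 bases, Igkv10-94 was identical to Igkv10-95 at 279 positions and to Igkv10-96 at 271 positions, and Igkv13-84 was identical to Igkv13-85 at 279 positions with a longest shared run of 193 bases. The longest run that Igkv10-94 shared was 82 bases with Igkv10-95 and 71 bases with Igkv10-96. Reads of 75 nt within the runs of 82 and 193 bases match more than 1 gene, so counts of Igkv10-94 against Igkv10-95 and of Igkv13-84 against Igkv13-85 are uncertain.

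The 9 genes spanned a wide range of levels. Divided by exon length, the mean over all 8 libraries was 220 CPM per kb for Ighm and 189 CPM per kb for Igkc, far above the other members. Cd79b followed at 7.28, Blnk at 6.09, Jchain at 5.26 and Cd79a at 4.28 CPM per kb, and Fcrla at 2.39, Iglc2 at 2.32 and Ms4a1 at 0.353 CPM per kb were lowest. The ranges of neighbours in this order overlapped between libraries, from 138 to 386 CPM per kb for Ighm and from 4.44 to 889 for Igkc, and from 4.29 to 10.4 for Cd79b and from 3.33 to 10.2 for Blnk. Without HFD replicate 1 the mean was 197 CPM per kb for Ighm and 89.4 for Igkc. In the same 7 libraries Jchain averaged 2.58 CPM per kb, below Cd79a at 3.90, Iglc2 averaged 0.782 and Ms4a1 0.216.

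**Figure D1:**
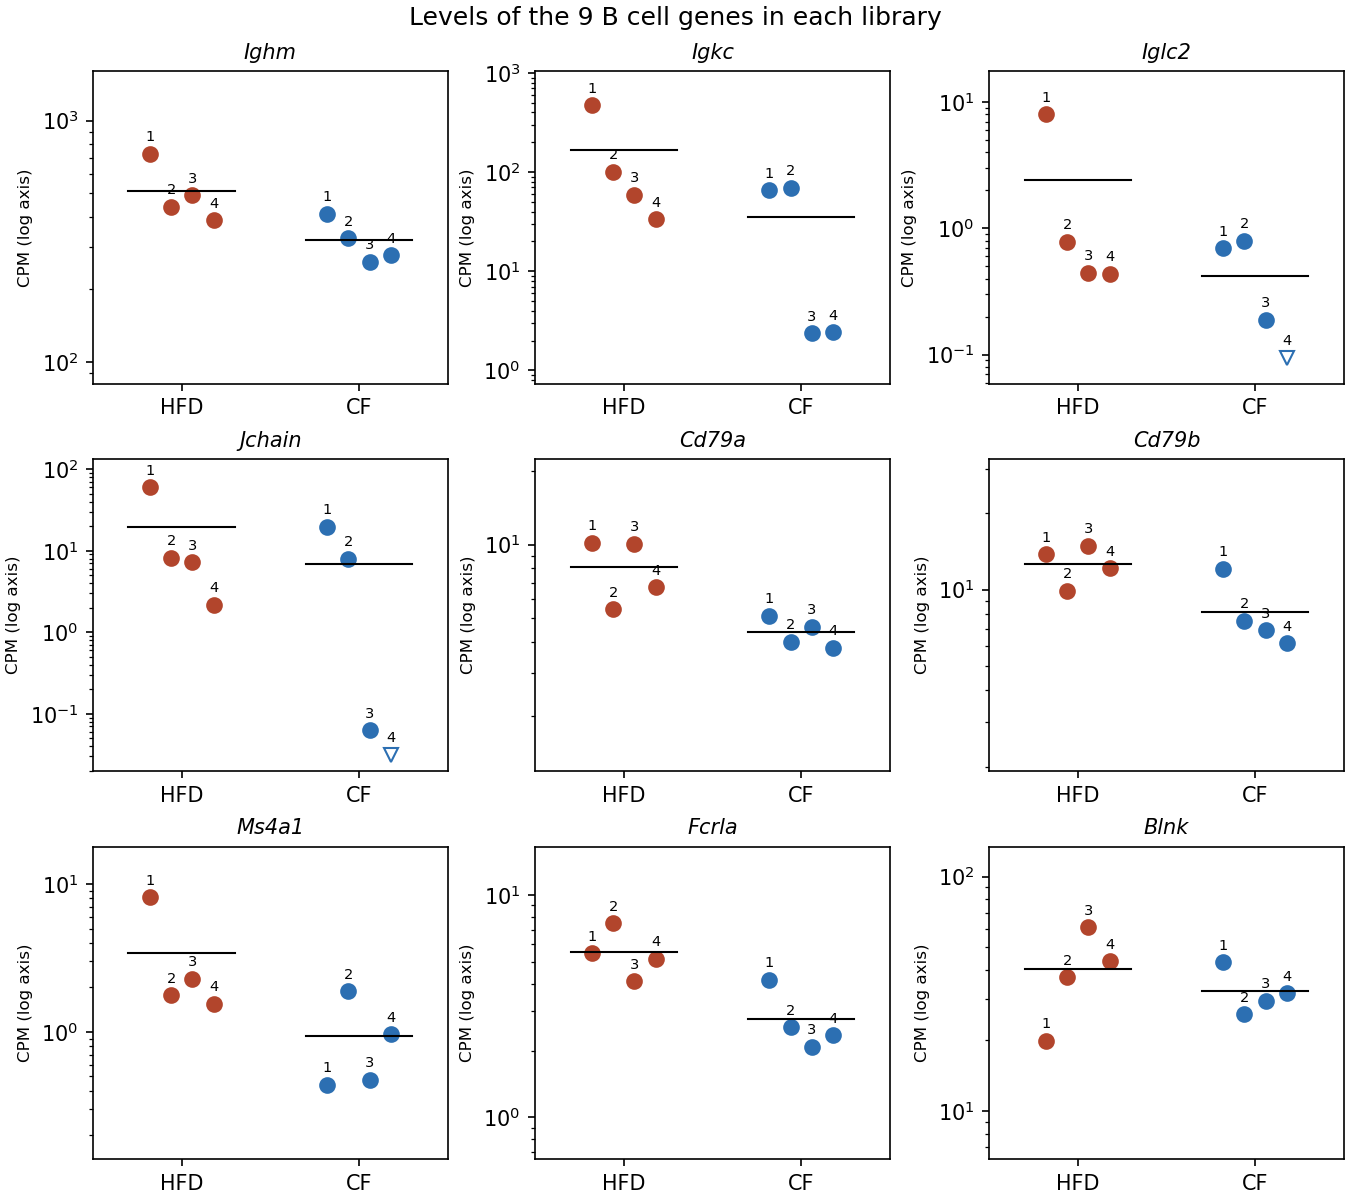
Levels of the 9 genes in CPM on a log axis, 1 panel per gene, for HFD (red) and CF (blue); each point is 1 library numbered by replicate, the bar is the mean of the diet, and an open triangle at the foot of a panel marks a count of 0. HFD replicate 1 is the highest library for Igkc (473 CPM), Iglc2 (7.99 CPM), Jchain (60.5 CPM) and Ms4a1 (8.12 CPM), and the lowest for Blnk (19.96 CPM).

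The question of this comparison was whether diet changed these genes in CDPs. With edgeR and Benjamini-Hochberg adjustment over 15837 genes, 0 of the 9 passed an adjusted p of 0.05, beside 0.423% of all genes tested in either direction, and those 67 genes were all lower in HFD. At an unadjusted p below 0.05, 5 of the 9 genes were higher in HFD (Ighm, Cd79a, Cd79b, Ms4a1 and Fcrla) and none was lower, beside 3.22% of all genes that were higher and 5.34% that were lower. All 9 estimates were above 0, as were 59.7% of all genes tested. The median log2 fold change was 1.00 over the 9 genes and 0.05 over all genes tested. Without HFD replicate 1, the median was 0.59 over the 9 genes and 0.03 over all genes, and 8 of the 9 estimates and 54.2% of all estimates were above 0. In that fit 5 of the 9 genes (Ighm, Cd79a, Cd79b, Fcrla and Blnk) were higher at an unadjusted p below 0.05 and none was lower, beside 4.79% and 9.76% of all genes. When the libraries were scaled by size alone, 5 of the 9 genes were higher and none lower by this measure, beside 9.92% of all genes that were higher and 3.86% that were lower. With DESeq2 on the same counts, Cd79a (adjusted p = 0.026) and Fcrla (adjusted p = 0.038) passed as higher, beside 0.404% of all genes that were called higher and 3.18% that were called lower.

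**Figure D2:**
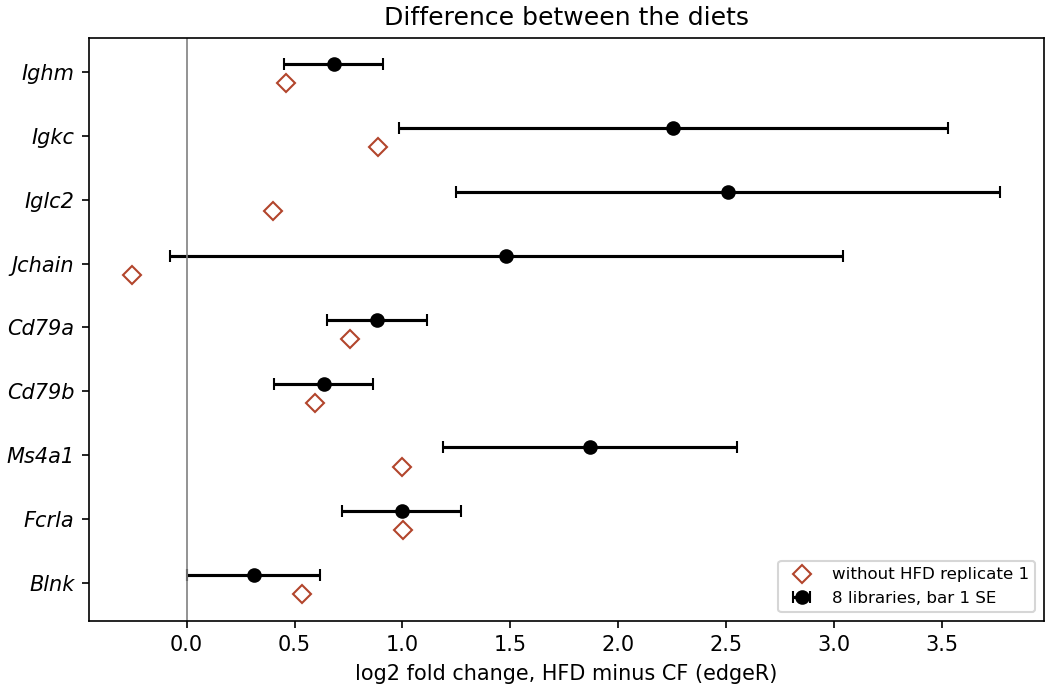
Log2 fold change of each gene, HFD minus CF, from edgeR with all 8 libraries (black points, bar of 1 SE) and without HFD replicate 1 (open diamonds); the vertical line marks no difference. All 9 black points lie above 0, and without that library Jchain lies at -0.25 while Fcrla stays at 1.00.

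Ighm, on chromosome 12 of GRCm38 (113418558 to 113422730, minus strand), was the member of highest level per kb in 7 libraries, with Igkc above it in HFD replicate 1. It was measured at 728, 441, 490 and 387 CPM in HFD replicates 1 to 4 and at 412, 327, 261 and 277 CPM in CF replicates 1 to 4. HFD averaged 512 ± 150 CPM and CF 319 ± 67.8 CPM (SD over 4 libraries each), and the groups overlapped through HFD replicate 4 and CF replicate 1. The log2 difference was 0.68 (SE 0.23, edgeR adjusted p = 0.34), and 0.46 without HFD replicate 1 (adjusted p = 0.28). Ighd, the delta constant gene that is read from the same transcripts as Ighm in mature B cells, was at 12.4, 14.9, 20.5 and 12.9 CPM in HFD and at 10.8, 10.2, 7.84 and 8.94 CPM in CF. Each HFD library was above each CF library for Ighd, and its log2 fold change of 0.68 (SE 0.19) was the same in size as that of Ighm but did not pass (edgeR adjusted p = 0.19).

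Igkc, the single kappa constant gene (chromosome 6, 70726435 to 70726966, plus strand), varied more than any other member that had counts in all libraries. It was measured at 473, 101, 59.2 and 33.5 CPM in HFD and at 65.5, 69.4, 2.36 and 2.42 CPM in CF, so that the highest library held 200-fold the level of the lowest. Within CF the libraries fell into 2 levels, with replicates 3 and 4 far below replicates 1 and 2. The log2 fold change was 2.25 (SE 1.27, edgeR adjusted p = 0.74) and 0.88 without HFD replicate 1 (adjusted p = 0.79). The deposited counting does not state how reads shared with Gm30211, a long non-coding RNA on the same strand that overlaps Igkc, were placed.

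Iglc2 on chromosome 16 (19198396 to 19200351, minus strand), the lambda constant gene with the most counts in sum, was also highest in HFD replicate 1 and low in CF replicates 3 and 4. It was measured at 7.99, 0.787, 0.446 and 0.437 CPM in HFD and at 0.698, 0.795, 0.189 and 0 CPM in CF. In CF replicate 4 the count of 0 allows up to 3 counts, which is 0.078 CPM in that library. The log2 fold change fell from 2.51 (SE 1.26, edgeR adjusted p = 0.68) to 0.40 when HFD replicate 1 was left out (adjusted p = 0.87). Iglc2 and Iglc3 were identical at 289 of 300 constant region bases, so their counts are uncertain with respect to each other, and Iglc2 also overlaps the joining segment Iglj2. Iglc3 was above CF in each HFD library (0.315 to 1.32 against 0.078 to 0.284 CPM, log2 fold change 1.86, edgeR adjusted p = 0.34), with HFD replicate 1 highest, and its log2 fold change was 1.30 without that library (adjusted p = 0.39).

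Counts of kappa against lambda were compared within libraries, where no scaling is needed. Igkc made up 97.3%, 98.3%, 98.6% and 96.8% of light chain constant counts in HFD replicates 1 to 4, and 98.1%, 98.5%, 86.2% and 96.9% in CF replicates 1 to 4. The low share in CF replicate 3 came from 75 kappa and 12 lambda counts, with a 95% Wilson interval of 77.4% to 91.9%, and in CF replicate 4 from 93 and 3 counts, with an interval of 91.2% to 98.9%. These intervals cover counting error only. HFD averaged 97.8% ± 0.87 and CF 94.9% ± 5.84 (SD over 4 libraries each), and an exact permutation test, two-sided, gave p = 0.49, where the smallest possible was 0.029. Without CF replicate 3 the difference of 2.84 percentage points became -0.062, and the difference was smaller than the spread between libraries.

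The balance of heavy to light chain counts differed between libraries by more than the kappa share did. There were 1.54, 4.38, 8.29 and 11.6 Ighm counts per Igkc count in HFD replicates 1 to 4, and 6.29, 4.71, 110.5 and 114.5 in CF replicates 1 to 4. CF replicates 3 and 4 were lowest for both genes. Ighm was at 261 and 277 CPM in them against 327 to 728 CPM in the others, and Igkc at 2.36 and 2.42 CPM against 33.5 to 473 CPM. By the ratio, the other 6 libraries lay between 1.54 and 11.6, and CF replicates 1 and 2 lay within the range of HFD.

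**Figure D3:**
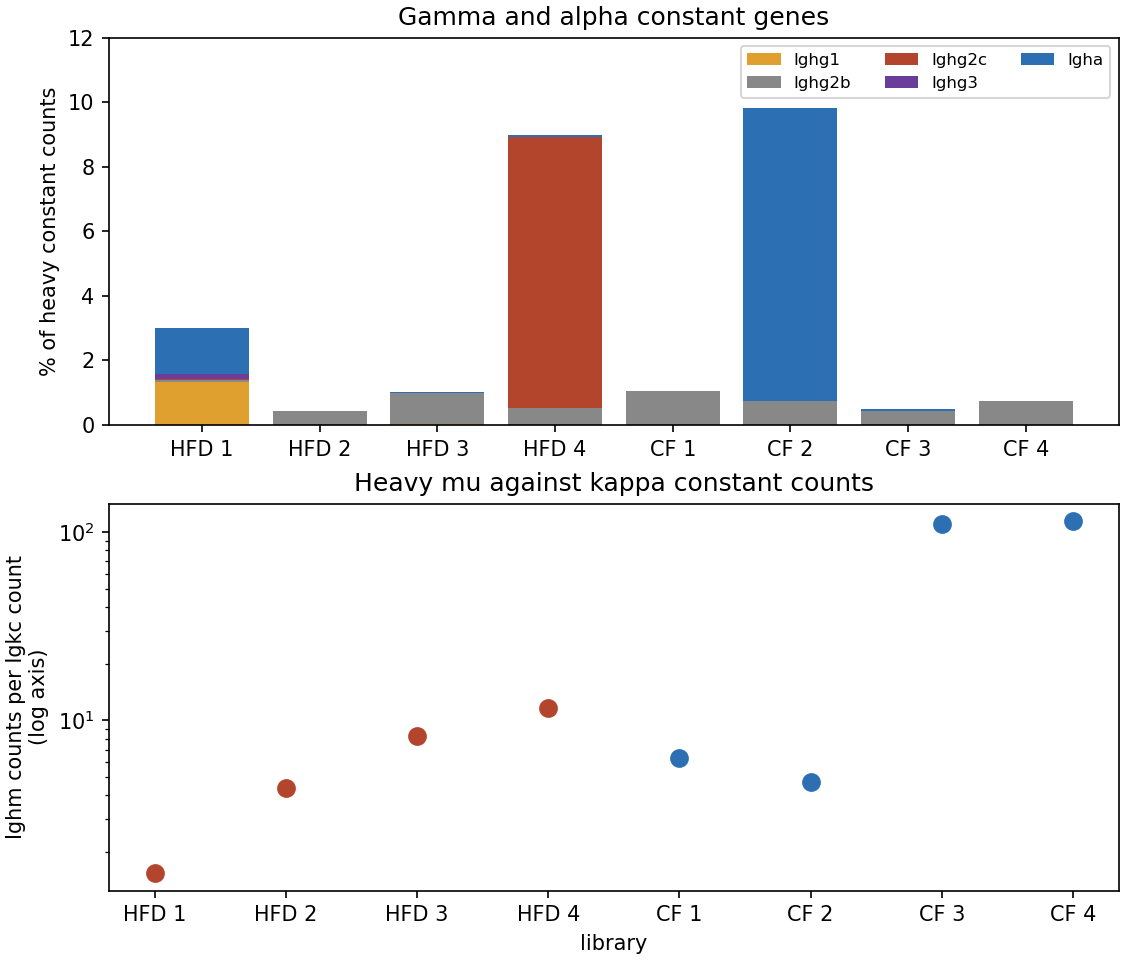
Upper panel, counts of the gamma and alpha constant genes as a percentage of all heavy chain constant counts in each library (stacked bars); lower panel, Ighm counts per Igkc count on a log axis, HFD in red and CF in blue. Ighg2c takes 8.39% in HFD replicate 4 and Igha 9.09% in CF replicate 2, and the ratio is 110.5 and 114.5 in CF replicates 3 and 4.

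Among heavy chain constant genes, the mu class took most counts in each of the 8 libraries and the switched classes differed between libraries. Ighm held 95.4%, 96.3%, 95.01% and 88.1% of heavy constant counts in HFD, and 96.4%, 87.4%, 96.6% and 96.1% in CF. The 2 lowest shares stood beside 1 other class each. Ighg2c, a gamma constant gene, had 1520 counts (8.39%, 95% Wilson interval 8.00% to 8.81%) in HFD replicate 4, 6 in HFD replicate 1 and 0 in the other 6 libraries. Igha, the alpha constant gene of IgA, had 1067 counts (9.09%, 95% interval 8.58% to 9.62%) in CF replicate 2, 338 in HFD replicate 1 and at most 8 in the others. Ighg1 was counted 318 times and Ighg3 36 times in HFD replicate 1, against at most 5 and 0 elsewhere. Ighg2b was counted in each library, 14 to 190 times, with its lowest count in HFD replicate 1 (log2 fold change -0.10, edgeR adjusted p = 0.99). A class seen in 1 library of a diet gives no difference between diets.

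Jchain, on chromosome 5 (88519809 to 88527891, minus strand), was measured at 60.5, 8.24, 7.24 and 2.16 CPM in HFD and at 19.8, 7.98, 0.063 and 0 CPM in CF. These correspond to 1885, 262, 276 and 89 counts in HFD and to 767, 251, 2 and 0 counts in CF. CF replicates 3 and 4, which were lowest for Igkc, were also lowest here. CF replicate 1 was below HFD replicate 1 but above HFD replicates 2 to 4, and CF replicate 2 lay within the range of HFD replicates 2 to 4. The log2 fold change of 1.48 (SE 1.56, edgeR adjusted p = 0.88) turned to -0.25 without HFD replicate 1 (adjusted p = 0.96). HFD averaged 19.5 ± 27.4 CPM and CF 6.97 ± 9.35 CPM (SD over 4 libraries each), so that the SD exceeded the mean in both diets.

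Variable region genes showed how the kappa and heavy chain counts were composed. The table held 72 variable genes, of which 33 were Ighv, 37 Igkv and 2 Iglv, out of 218 in the annotation, and each gene of the table reached at least 29 counts in some library. Many variable genes are thus in the table through 1 library. HFD replicate 1 was the library with the most counts for 50 of the 72, and 14 had counts in that library alone. At least 90% of the counts lay in 1 library for 35 genes, 27 of them in HFD replicate 1. Without that library, 28 of the 72 reached 29 counts in another library, and 15 of these 28 had at least 90% of the remaining counts in 1 library. The number of variable genes with at least 29 counts was 60 in HFD replicate 1, 7, 9 and 4 in HFD replicates 2 to 4, and 10, 4, 1 and 3 in CF replicates 1 to 4.

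In HFD replicate 1 the kappa variable counts were spread over many genes, and in HFD replicates 2 to 4 and CF replicates 1 and 2 a few genes held most of them. Genes that reached 29 counts in no library are not in the table, which limits what can be seen in libraries with few such counts. Igkv15-103 led HFD replicate 1 with 615 of 5949 kappa variable counts (10.3%), followed by Igkv12-44 with 553 and Igkv10-96 with 512. Igkv1-88 led HFD replicate 2 with 254 of 775 (32.8%), ahead of Igkv12-46 with 245, which led HFD replicate 3 with 212 of 516 (41.1%). Igkv13-84 held 400 of 505 counts (79.2%, 95% Wilson interval 75.5% to 82.5%) in HFD replicate 4, and its near copy Igkv13-85 held 50.

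In CF replicate 1, Igkv10-94 held 1099 of 1746 counts (62.9%), Igkv10-96 held 569 and Igkv10-95 held 66, which are the 3 alike genes printed above. In CF replicate 2, Igkv8-27 held 351 of 623 (56.3%) and Igkv6-32 held 255. CF replicates 3 and 4 had 6 and 2 kappa variable counts in all, so no leading gene was detectable at this depth. The leading kappa variable gene thus differed in each of the 6 libraries that had more than 6 such counts.

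**Figure D4:**
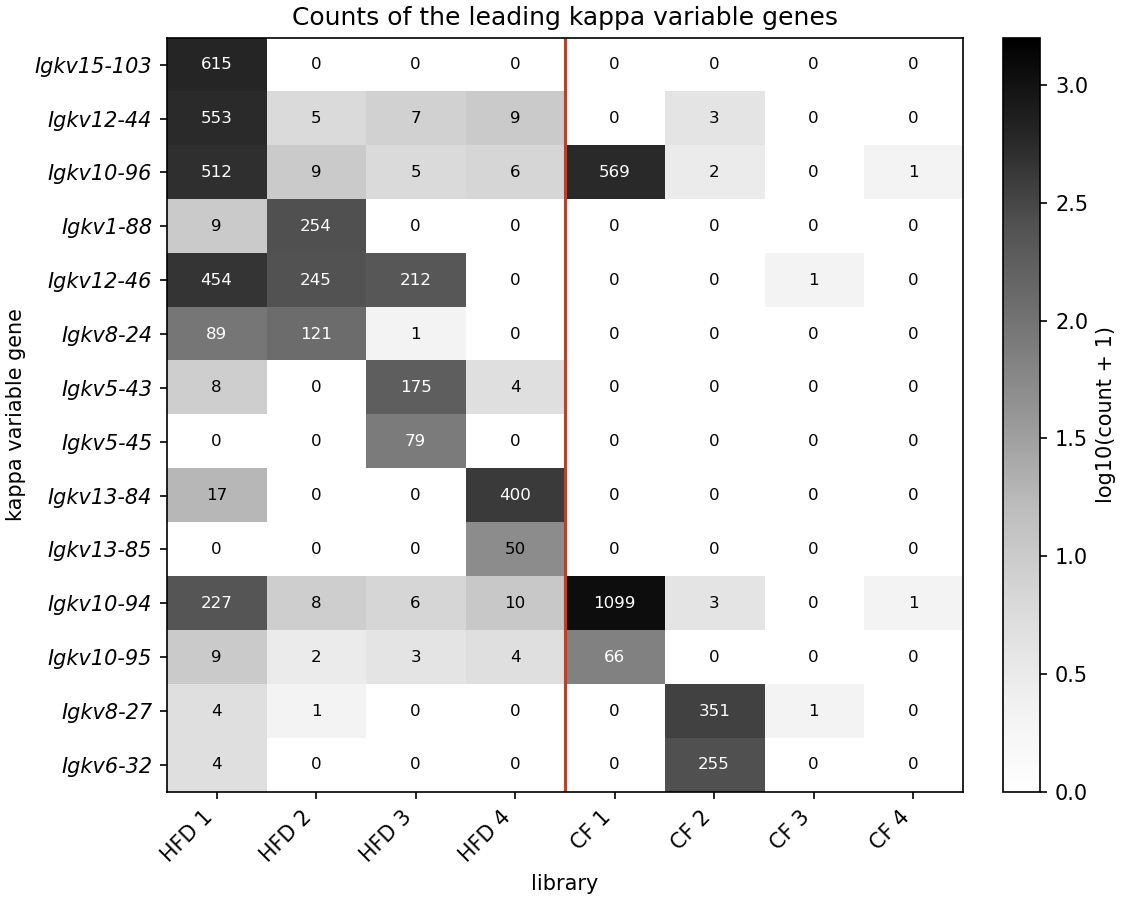
Counts of the 14 kappa variable genes that ranked among the first 3 of a library with at least 29 counts (rows) in each library (columns), shaded by log10(count + 1) with the count written in each cell; the line parts HFD from CF. Each library except CF replicates 3 and 4 has its own leading gene, from 1099 counts of Igkv10-94 in CF replicate 1 to 212 counts of Igkv12-46 in HFD replicate 3.

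Heavy chain variable counts in the table were few beside the constant counts. Only the 33 Ighv genes that reached 29 counts in some library entered them, and 29 of these did so in HFD replicate 1. The ratios of variable to constant counts given here thus leave out other variable genes, and counts were not divided by gene length. Per 100 heavy constant counts, there were 14.4 Ighv counts in HFD replicate 1, 2.32 to 4.73 in the other HFD libraries and 1.82 to 5.01 in CF. Ighv1-26 led HFD replicate 1 with 545 of 3426 counts (15.9%), Ighv1-18 led replicate 2 with 247 of 626, Ighv3-6 led replicate 3 with 293 of 930 and Ighv1-55 led replicate 4 with 171 of 420. Ighv1-53 led both CF replicate 1 (290 of 704) and CF replicate 2 (257 of 588), and was at 9 and 5 counts in CF replicates 3 and 4. In HFD it was at 111 counts in replicate 1 and at 4 to 12 in the other libraries. Its log2 fold change was -1.97 (SE 1.43, edgeR adjusted p = 0.81). Ighv1-23 led CF replicate 3 with 44 of 156 and CF replicate 4 with 90 of 292. Ighv1-23 had counts in each of the 8 libraries, from 0.578 to 3.49 CPM, and its log2 fold change was -0.07 (edgeR adjusted p = 0.99). The ratio of variable to constant counts for kappa was 22.9 to 40.4 per 100 in HFD, and 68.9, 28.6, 8.00 and 2.15 in CF replicates 1 to 4, of which the last 2 rest on 6 and 2 variable counts.

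The signalling pair of the receptor was measured at lower but steadier levels. Cd79a, on chromosome 7 (24897381 to 24902197, plus strand), was at 10.2, 5.44, 10.1 and 6.70 CPM in HFD and at 5.12, 4.01, 4.63 and 3.80 CPM in CF. Each HFD library was above each CF library, which held for 1 of the 9 genes and for 2.58% of all genes tested, while 3.58% of all genes and 0 of the 9 were apart in the other direction. HFD averaged 8.10 ± 2.40 CPM and CF 4.39 ± 0.60 CPM (SD over 4 libraries each). On the log2 scale the difference was 0.88 (SE 0.23, edgeR adjusted p = 0.17), and 0.76 without HFD replicate 1 (adjusted p = 0.17).

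Cd79b, on chromosome 11 (106311341 to 106314762, minus strand), was at 13.8, 9.91, 14.9 and 12.1 CPM in HFD and at 12.1, 7.54, 6.90 and 6.13 CPM in CF. The groups overlapped through CF replicate 1 alone. Its log2 fold change was 0.63 (SE 0.23, edgeR adjusted p = 0.42), and 0.59 without HFD replicate 1. CF replicates 3 and 4 were the lowest libraries for Cd79b, as for Igkc and Jchain, and CF replicate 4 was the lowest for Cd79a. The highest library held 2.7-fold the level of the lowest for Cd79a and 2.4-fold for Cd79b, against 200-fold for Igkc.

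Fcrla, on chromosome 1 (170917576 to 170927583, minus strand), was at 5.49, 7.49, 4.09 and 5.17 CPM in HFD and at 4.16, 2.55, 2.08 and 2.34 CPM in CF. HFD replicate 3 lay just below CF replicate 1, and the other libraries did not overlap. HFD averaged 5.56 ± 1.42 CPM and CF 2.78 ± 0.94 CPM (SD over 4 libraries each). The log2 difference was 1.00 (SE 0.28, edgeR adjusted p = 0.19) and stayed at 1.00 without HFD replicate 1 (adjusted p = 0.16). HFD replicate 1 was not its highest library. The processed pseudogene Gm2962 lies inside it on the same strand.

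Ms4a1, on chromosome 19 (11249675 to 11266241, minus strand), had the lowest level per kb of the 9 genes. It was at 8.12, 1.76, 2.28 and 1.55 CPM in HFD and at 0.439, 1.88, 0.472 and 0.962 CPM in CF. Apart from HFD replicate 1, the values lay within 15 to 87 counts per library. Its log2 difference was 1.87 (SE 0.68, edgeR adjusted p = 0.42) and 1.00 without HFD replicate 1 (adjusted p = 0.40). An antisense gene, 4930526L06Rik, overlaps Ms4a1, and whether the counting used strand is not given in the sources used here.

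Blnk, also on chromosome 19 (40928927 to 40994535, minus strand), had another order of libraries. It was at 19.96, 37.3, 60.8 and 43.6 CPM in HFD and at 43.1, 25.8, 29.6 and 31.8 CPM in CF. HFD replicate 1 was its lowest library and HFD replicate 3 its highest. Its log2 difference was 0.31 (SE 0.31, edgeR adjusted p = 0.88), and 0.54 without HFD replicate 1 and 0.04 without HFD replicate 3. Some genes of recombination had the same lowest and highest library, with Rag1 at 19.8 CPM in HFD replicate 1 and 107 in HFD replicate 3, and Dntt (terminal transferase) at 33.9 and 356 CPM. Of the same list, the DNA repair genes Lig4 (6.32 and 2.86 CPM) and Xrcc5 (5.75 and 4.17 CPM) were instead highest in HFD replicate 1. Il7r, the receptor chain for interleukin 7, was at 26.4 and 102 CPM in the same 2 libraries, and Flt3 of the sort gate at 88.8 and 378 CPM.

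Other genes of the B lineage were taken from lists, and with edgeR on all 8 libraries 0 genes of any list passed an adjusted p of 0.05. The counts of list genes at an unadjusted p below 0.05 stand beside 3.22% of all genes higher and 5.34% lower. Of 10 genes of the pre-B receptor and recombination, 1 was higher at an unadjusted p below 0.05 and none lower, with a list median of 0.29. Vpreb1, part of the surrogate light chain, was at 2.202 to 3.86 CPM in HFD and 0.936 to 2.08 CPM in CF (log2 fold change 0.85, adjusted p = 0.39), and the estimate for Vpreb3 was 0.66 (adjusted p = 0.60). Of 16 B lineage transcription factors, 4 were higher at an unadjusted p below 0.05 and none lower. Spib, a factor of B cells and plasmacytoid dendritic cells, was at 27.1, 52.7, 31.2 and 60.5 CPM in HFD and at 13.0, 23.2, 16.4 and 12.4 CPM in CF (log2 fold change 1.40, SE 0.31, adjusted p = 0.11, and 0.038 without HFD replicate 1). Bach2, a repressor that holds B cells from becoming plasma cells, differed by 0.93 on the log2 scale (SE 0.22, adjusted p = 0.14) with each HFD library above each CF library. With DESeq2, Spib (adjusted p = 8.5e-04) and Bach2 (adjusted p = 0.0089) passed. Pax5, a defining factor of the B lineage, was at 32.3, 26.9, 38.9 and 4.54 CPM in HFD and at 16.4 to 27.7 CPM in CF, so HFD replicate 4 was far below all others.

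Of 20 B cell surface genes tested, 7 were higher at an unadjusted p below 0.05 and none lower, with a list median of 0.42. Estimates were 0.63 for Cd38 (adjusted p = 0.37) and 1.22 for Ly6d, a surface protein of early B and plasmacytoid lineages (adjusted p = 0.39). Ly6d passed when HFD replicate 1 was left out (log2 fold change 1.504, adjusted p = 0.045). Of 20 receptor signalling genes, 4 were higher and none lower by the same measure, with a list median of 0.05, the same as that of all genes. Pik3ap1, an adaptor for PI3 kinase, was at 39.0 to 43.2 CPM in HFD and 28.9 to 32.5 CPM in CF (log2 fold change 0.43, SE 0.09, adjusted p = 0.088), and the estimate for Bank1, a B cell scaffold protein, was 1.15 (SE 0.31, adjusted p = 0.18). With DESeq2, Pik3ap1 (adjusted p = 5.9e-04) and Bank1 (adjusted p = 0.023) passed.

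Of 8 antibody secreting cell genes tested, 3 were higher and 1 was lower at an unadjusted p below 0.05. Estimates were 0.50 for Xbp1, a factor of secretory cells (adjusted p = 0.32), and -0.68 for Slamf7, a surface receptor of plasma cells that other immune cells also carry (adjusted p = 0.27). Among all 87 immunoglobulin genes in the table, 20 passed the filter, and 3 of them were higher at an unadjusted p below 0.05 (Ighm, Ighd and Iglc3). With DESeq2, Ighd passed (adjusted p = 0.048).

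Markers of plasmacytoid dendritic cells, which share Ly6d and Dntt with the lists above, summed to 362, 854, 945 and 940 CPM in HFD and to 568 to 640 CPM in CF. By this sum HFD replicates 2 to 4 were above all CF libraries and HFD replicate 1 was below them, but single markers in HFD replicate 1 differed, with Ccr9 (5.13 CPM, at most 4.80 in CF) and Pacsin1 (2.89 CPM, at most 2.67 in CF) above CF and Siglech (13.3 CPM) within its range. Of 9 such markers tested, 5 were higher at an unadjusted p below 0.05 and none lower. None passed with edgeR on 8 libraries, while DESeq2 called 3 (Ccr9, Pacsin1 and Siglech) and edgeR without HFD replicate 1 called 5 (these 3, Cox6a2 and Ly6d), beside 0.214% of all genes called higher and 1.05% called lower in that fit. T and NK cell markers summed to 38.9 CPM in HFD replicate 1 and to 13.8 to 26.0 CPM in the other 7 libraries. The part of these cells in the values of the 9 genes was not tested.

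The genes whose pattern was most like that of the 9 were found by the correlation of log2 CPM with the mean of the 9 standardised levels over the 8 libraries, as a description. They were Ptcd1 (Pearson r = 0.97), Sept4 (0.96), Edem3 (0.96), Sertad3 (0.96) and Cry1 (0.96). These were the highest values among all genes tested, over only 8 libraries, so their size is partly a result of the selection. The mean also mixes unlike patterns, since the correlation of Blnk with the other members ran from -0.37 (Iglc2) to 0.39 (Cd79b). Edem3, an enzyme that trims glycoproteins in the endoplasmic reticulum, was at 36.5, 35.0, 34.1 and 31.6 CPM in HFD and at 31.8, 30.3, 28.8 and 27.5 CPM in CF, a span far narrower than that of the 9 genes.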

How the data were processed

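RNA-seq of sorted CDPs was analysed in 8 libraries. The authors deposited raw read counts per gene, made with cutadapt, HISAT2, StringTie and GENCODE genes on GRCm38. No removal of amplification duplicates is stated, so reads may not be independent molecules. Uniquely mapped read pairs were kept before counting. The annotation release they used is not given in the sources used here. Genes were matched by identifier to GENCODE vM21 (16067 of 16119).

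Counts were filtered with filterByExpr, normalized by TMM and compared by the robust quasi-likelihood test of edgeR 4.0.16 in R 4.3.3, with diet as the only term and Benjamini-Hochberg adjustment over all genes. CPM divide counts by TMM-scaled library sizes, and a prior count of 2 entered log2 CPM. The exact test enumerated 70 arrangements of the diet labels. The alternatives were RLE, library size alone, DESeq2 1.42.0, limma 3.58.1 voom, no filter, a replicate block, protein-coding and immunoglobulin genes alone, and each library left out. The fit was tested on simulated data.

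The genes and lists were chosen with earlier results of these data known. Beside the 9 genes, the 2 lowest p values of each list and the 5 genes of most alike pattern were named by rule. Variable, gamma, alpha, delta and lambda genes, Pax5, Ebf1, Cd22, the plasmacytoid markers, Rag1, Dntt, Lig4, Xrcc5, Il7r and the gate genes were named after their values were seen. Some listed genes are not reported here by name. Figures were drawn with matplotlib 3.10.9.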

Additional observations from a re-analysis of the deposited data

Results flagged for a closer look

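A single library stood far from the other 3 of its diet in 5 of the 22 groups of 4 values examined. The limit used flags about 1 in 20 groups of independent, normally distributed values. The groups examined share libraries and correlated genes (Igkc with Jchain, r = 0.98), so no excess over chance was measured. Of the 5 flagged groups, 4 concerned HFD replicate 1, namely Igkc at 473 CPM (33.5 to 101 in the other HFD libraries), Iglc2 at 7.99 CPM (0.437 to 0.787), Jchain at 60.5 CPM (2.16 to 8.24) and Ms4a1 at 8.12 CPM (1.55 to 2.28). The other was the kappa share of light chain counts in CF replicate 3, at 86.2% against 96.9% to 98.5% in the other CF libraries, from 75 kappa and 12 lambda counts.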

How the results depend on the processing

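The 67 genes called over the whole table were 108 by library size alone, 567 with DESeq2 (64 higher and 503 lower), 0 with the replicate block and 0 among protein-coding and immunoglobulin genes alone, and 0 to 200 with each library left out, with 200 without HFD replicate 1, 154 without CF replicate 4 and at most 2 without any other library. Where edgeR called none, the genes higher and lower at an unadjusted p below 0.05 numbered 236 and 675 with the replicate block, 289 and 253 among protein-coding and immunoglobulin genes, and 336 to 547 and 731 to 870 in the fits without HFD replicate 3 or CF replicate 1, 2 or 3. Of the 9 genes, 2 were called with DESeq2 and 0 in each other setting. Without HFD replicate 1 the log2 fold change of Jchain was -0.25, and over all single libraries left out it reached 2.87, beside 3.83 with limma voom and 2.69 with the replicate block. The kappa difference ranged from -0.062 to 4.02 percentage points with each library left out, the sign turned without CF replicate 3, and with Iglc2 as the only lambda gene it was 1.28 points (exact permutation p = 0.80). The cause of these changes was not tested. Library size alone moved the median log2 fold change of all genes from 0.05 to 0.25. Replicate numbers did not pair the libraries (correlations of -0.44, -0.08, -0.23 and -0.18), and the replicate block changed no call on the 9 genes, giving a kappa difference of 2.84 points. Counts under 29 limit Iglc2 outside HFD replicate 1, Ms4a1 in CF replicates 1 and 3, and Jchain and the kappa variable genes in CF replicates 3 and 4.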
